A study of Mus musculus with 6 samples.

Results

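The genes described here are 39 chaperone and stress-response genes of 3T3-L1 cells, of the 24421 genes in the deposited table, and all 39 were found by their symbols. The choice was made by gene name: 21 belong to the endoplasmic reticulum (ER) and its unfolded protein response, 15 to the cytosol and its heat shock response, and 3 to the mitochondrial matrix. 3T3-L1 is a mouse embryonic fibroblast line that can be turned into fat cells and serves as a preadipocyte model. RNA depleted of ribosomal RNA was sequenced from 3 wild-type (WT) libraries and 3 libraries of cells in which Ube3d was knocked out (KO), all from cells that were passaged before they became confluent. The labels name no heat, drug or other stress treatment in either group. The labels call the libraries of a genotype biological replicates, without saying whether they came from separate cultures or passages, so p-values cover only the spread among these libraries, which may be technical. Not given in the sources used here are how the knockout was made and whether it is a single clone. Ube3d encodes an E3 ubiquitin ligase that is known as a partner of a pre-mRNA 3′-end processing nuclease.

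Libraries held between 23767181 and 29389480 gene counts. Ube3d, listed as Ube2cbp, had 145, 229 and 173 counts in WT and 56, 43 and 53 in KO, so its transcript was lower but still counted in every KO library. All 10 fibroblast markers were detected in both genotypes, with a summed level of 14865 to 15252 CPM in WT and 12076 to 12351 CPM in KO. Ribosomal Rn45s took 7.28% to 8.91% of counts in WT and 9.68% to 10.2% in KO. CPM, the usual depth-scaled count, is on TMM-scaled library sizes throughout. Lists of 6 markers for other cell types stayed low. Mature adipocyte markers summed to 3.43 to 3.92 CPM in WT and 0.904 to 1.21 CPM in KO, and epithelial markers to 0.471 to 0.707 and 0.320 to 0.697 CPM. Endothelial markers summed to 0.600 to 1.05 CPM in WT and 1.30 to 2.27 CPM in KO, and macrophage markers to 5.35 to 6.67 and 6.68 to 7.30 CPM. Lep, Retn, Epcam, Krt18, Tie1, Emcn and Adgre1 had no count in any library. The fibroblast, adipocyte, endothelial, macrophage and Rn45s summed levels differed by genotype without overlap, and their part in the results was not tested. The fibroblast and macrophage lists did not move as a whole. With at most 1 tested marker each, the adipocyte, endothelial and epithelial lists could not be judged. Of the fibroblast markers 7 fell, while Dcn (log2 2.48) and S100a4 (0.31) rose. Of the macrophage markers Cd68 rose (0.71), Lyz2 fell (−1.55) and Csf1r was not called (0.004), and the only adipocyte and endothelial markers tested were Fabp4 (−1.83) and Vwf (2.13). In bulk RNA, fewer cells of a kind and less RNA per cell cannot be told apart.

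Chaperones bind unfolded stretches of other proteins and help them to fold, and cells keep separate sets in each compartment. When unfolded proteins build up in the ER, the sensors IRE1, ATF6 and PERK start the unfolded protein response. IRE1 splices the mRNA of Xbp1, ATF6 is cut to release a transcription factor, and the targets of both include ER chaperones and the machinery of ER-associated degradation, which passes misfolded proteins back to the cytosol. In the cytosol, the transcription factor HSF1 drives HSP70, HSP90 and their partners after heat or other protein damage. Fibroblasts secrete large amounts of collagen and other matrix proteins that fold in the ER.

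The promoter windows of the members hold different elements in the ER set and in the other sets. RefSeq promoter windows on GRCm38.p6, from 250 bases before to 50 bases after the start of the gene, were at hand for 18 ER, 10 cytosolic and 2 mitochondrial members. The ER stress element, known to be bound by ATF6 with the factor NF-Y, was searched as CCAAT and CCACG with 9 bases of any kind between them, on both strands. It stood in 8 of the 18 ER members and in 0 of the other 12, against 0.137% of 27025 genes with a window. A minimal heat shock element, searched on both strands as GAANNTTC or TTCNNGAA, stood in 8 of the 10 cytosolic members, in both mitochondrial members and in 0 of the 18 ER members, against 17.0% of all genes. The UPR element TGACGTGG was in none of the members' windows, and in 0.714% of all genes. A match describes the letters only, and says nothing on whether a factor was bound in these cells.

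These stretches of 60 bases, 5′ to 3′ on the strand of the gene, are shown because they hold the element that each response is known for. Capitals mark both parts of the ER stress element, which in Calr and Creld2 reads from the other strand, or the heat shock elements. Calr, Hspa1b and Hspb8 are on the minus strand and the others on the plus strand. On GRCm38.p6 they lie, in the order shown, at chr2:34772005-34772064, chr8:84847054-84847113, chr12:17266471-17266530, chr15:88819500-88819559, chr19:6046512-6046571, chr17:34959309-34959368, chr9:18292256-18292315, chr1:55088038-55088097 and chr5:116422829-116422888.
Hspa5: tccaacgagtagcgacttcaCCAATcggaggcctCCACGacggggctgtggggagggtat
Calr: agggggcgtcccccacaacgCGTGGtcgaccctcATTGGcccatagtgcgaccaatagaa
Pdia6: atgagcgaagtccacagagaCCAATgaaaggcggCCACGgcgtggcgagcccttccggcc
Creld2: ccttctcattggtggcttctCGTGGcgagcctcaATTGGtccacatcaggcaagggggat
Syvn1: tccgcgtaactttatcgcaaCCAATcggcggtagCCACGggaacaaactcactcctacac
Hspa1b: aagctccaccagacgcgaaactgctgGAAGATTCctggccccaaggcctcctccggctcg
Chordc1: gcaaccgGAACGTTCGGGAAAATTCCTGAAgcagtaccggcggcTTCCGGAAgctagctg
Hspe1: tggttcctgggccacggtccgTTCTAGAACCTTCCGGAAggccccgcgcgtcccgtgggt
Hspb8: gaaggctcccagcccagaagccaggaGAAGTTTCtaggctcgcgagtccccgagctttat
The element of Hspa5 starts 65 bases before the start of the gene, that of Syvn1 44 bases and that of Hspa1b 104 bases before it. In Hspe1 the elements overlap into a row, and its window shares 285 of 300 bases with a window of Hspd1, which is read in the opposite direction. The windows of Hspa1a and Hspa1b differ at 4 of 300 bases, and both hold the same element.

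Of the 39 members, 29 differed between the genotypes, 12 higher and 17 lower in KO (edgeR, adjusted p under 0.05), where 61.4% of all 12947 tested genes were called, 30.3% as higher and 31.2% as lower. The 39 members passed the filter on low counts, but Hspb1 did so only through its KO libraries. Without it, 28 of 38 were called, 11 higher and 17 lower. The KO and WT libraries did not overlap for 30 members, 13 above and 17 below, against 64.3% of tested genes. The differences were small: apart from Hspb1, they ran from −0.61 to 0.68 on the log2 scale, with a median of −0.04 against 0.004 for all tested genes. In the ER set 10 of 21 rose and 5 fell, in the cytosolic set 2 of 15 rose and 9 fell, and all 3 mitochondrial members fell.

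**Figure D1:**
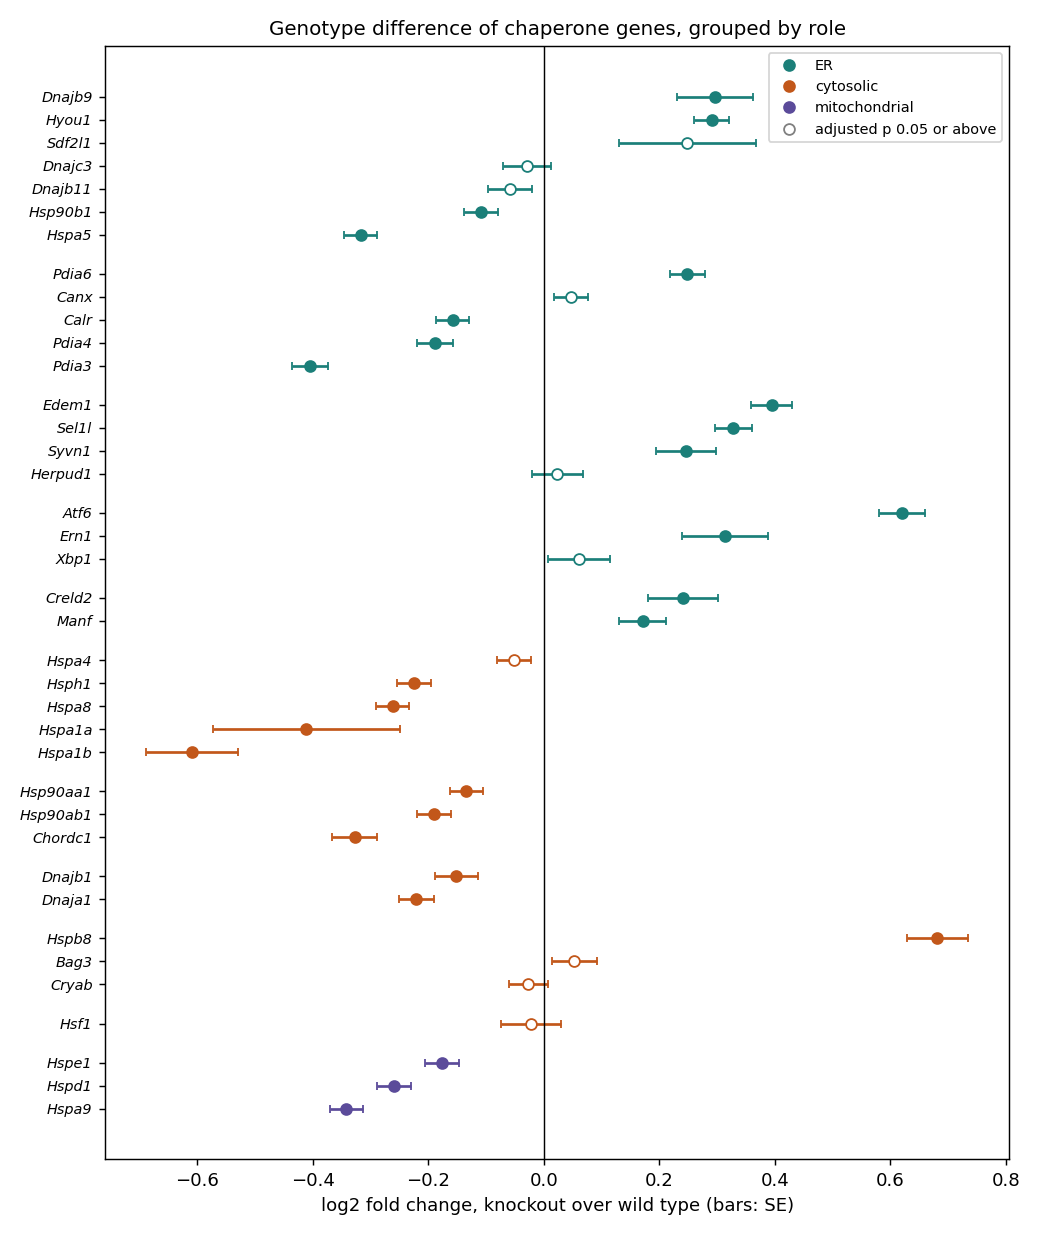
Log2 fold change of KO over WT (x axis) for 38 members (y axis, grouped by role and coloured by compartment), with the SE as bars and open circles where the adjusted p was 0.05 or above. Hspb1 is left out because of its very low counts. The sensors and degradation genes of the ER lie above 0, while the cytosolic HSP70 and HSP90 genes and the mitochondrial chaperones lie below 0.

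Both sensors among the members, Atf6 and Ern1, were higher in KO, where 30.3% of all tested genes were higher. The downstream factor Xbp1 was not called. Atf6 (chr1:170704457-170867771, minus strand, 16 exons, mm10) encodes the ER-bound transcription factor that is cut free when ER proteins misfold. It was counted at 58.6, 56.5 and 60.6 CPM in the WT libraries and at 93.03, 88.9 and 88.1 CPM in the KO libraries. No KO library came near the WT range, and the rise was 1.54-fold (log2 0.62, SE 0.04 on the log2 scale as for every SE here, edgeR adjusted p = 2.2e-22), the largest among the 21 ER members. Ern1 (chr11:106397620-106487796, minus strand, 22 exons), which encodes the sensor and RNase IRE1, had 13.7, 15.9 and 13.7 CPM in WT and 17.3, 17.8 and 18.9 CPM in KO. These groups did not overlap either, and the rise was 1.24-fold (SE 0.07, adjusted p = 2.0e-04). Xbp1, the transcription factor whose mRNA IRE1 splices, had 30.8, 32.8 and 33.96 CPM in WT and 33.5, 34.1 and 34.3 CPM in KO and missed the threshold (log2 0.06, approximate 95% interval −0.05 to 0.17, adjusted p = 0.332). Counts per gene do not tell spliced from unspliced Xbp1 mRNA.

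Of the 4 members of ER-associated degradation, Edem1, Sel1l and Syvn1 rose and Herpud1 was not called, where 30.3% of all tested genes rose. Other genes of this pathway did not share the direction: Edem2 (log2 −0.36), Vimp (−0.17) and Vcp (−0.13) fell, and Derl1, Derl2 and Os9 were not called. These 6 were picked after their values were seen. Edem2 lies on chromosome 2, where the median log2 change of all tested genes was −0.24. Edem1 (chr6:108828641-108859356, plus strand, 12 exons), a lectin-like protein that picks out misfolded glycoproteins, was at 86.99, 91.5 and 89.96 CPM in WT and at 116, 120.4 and 117 CPM in KO. Every KO library exceeded every WT library, by 1.31-fold on average (log2 0.39, SE 0.04, adjusted p = 7.2e-16). Sel1l, the membrane adaptor of the degradation complex, rose 1.26-fold (SE 0.03, adjusted p = 3.0e-14), from 124, 118 and 119 CPM in WT to 152, 149 and 152 CPM in KO. Syvn1, the ubiquitin ligase HRD1 that works with Sel1l, rose 1.19-fold (SE 0.05, adjusted p = 3.0e-05), from 37.7 ± 3.08 to 44.7 ± 1.28 CPM. Herpud1, a scaffold of the same complex and a known target of ER stress, had 59.3, 56.9 and 56.9 CPM in WT and 58.8, 55.8 and 61.1 CPM in KO. Its groups overlapped and it was not called (log2 0.02, approximate 95% interval −0.06 to 0.11, adjusted p = 0.655).

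The chaperones of the ER lumen went both ways. Hspa5 (chr2:34772090-34776529, plus strand, 8 exons) encodes BiP, the HSP70 of the ER, and was counted at 649, 652 and 663 CPM in WT and at 531, 527 and 519.9 CPM in KO. All KO libraries lay below WT, a 1.25-fold fall (log2 −0.32, SE 0.03, adjusted p = 9.8e-16). Hsp90b1, the ER form of HSP90, fell 1.08-fold (SE 0.03, adjusted p = 0.00115), from 818, 827 and 886 CPM in WT to 789.6, 783 and 775 CPM in KO. By contrast Hyou1 (chr9:44379490-44392369, plus strand, 26 exons), the large HSP70 relative that exchanges the nucleotide of BiP, rose 1.22-fold (SE 0.03, adjusted p = 3.5e-13). Hyou1 levels were 141, 139.7 and 143 CPM in WT and 170.1, 174 and 174 CPM in KO, with no overlap.

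The J-domain partners of BiP showed no common direction. Dnajb9, which encodes ERdj4, rose 1.23-fold (SE 0.07, adjusted p = 8.6e-05), from 17.6 ± 0.172 to 21.6 ± 0.137 CPM. Dnajb11 had 83.5 ± 3.19 CPM in WT and 80.1 ± 1.72 CPM in KO (log2 −0.06, adjusted p = 0.184). Dnajc3, also known as an inhibitor of the kinase PERK, had 61.6 ± 0.703 and 60.4 ± 0.574 CPM (log2 −0.03, adjusted p = 0.571). Both thus missed the threshold. Sdf2l1, a partner of the J-domain proteins, had 4.58, 5.32 and 5.49 CPM in WT and 5.93, 6.198 and 6.23 CPM in KO. Its groups did not overlap, but the difference missed the threshold (log2 0.25, SE 0.12, adjusted p = 0.0635).

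Among the lectin chaperones and disulfide isomerases, which fold glycoproteins and form disulfide bonds, 3 of 5 fell and 1 rose. Of all tested genes, 31.2% fell and 30.3% rose. Calr, the soluble lectin chaperone calreticulin, had 1364, 1385 and 1410.3 CPM in WT and 1243, 1233 and 1252 CPM in KO, a 1.12-fold fall (SE 0.03, adjusted p = 1.9e-06). Its membrane-bound relative Canx, calnexin, had 966, 969 and 1038 CPM in WT and 1044, 1031 and 998 CPM in KO. The Canx groups overlapped and the gene was not called (log2 0.05, adjusted p = 0.161), although without WT replicate 3 it was (log2 0.08, adjusted p = 0.0146). Pdia3, the isomerase that works with both lectins, fell 1.32-fold (SE 0.03, adjusted p = 4.1e-19), from 688, 679.7 and 750.4 CPM in WT to 539, 537 and 524 CPM in KO. Pdia4 fell 1.14-fold (adjusted p = 3.2e-07), from 179 ± 7.17 to 157 ± 1.04 CPM. Pdia6, the isomerase that acts with BiP, went the other way and rose 1.19-fold (adjusted p = 4.3e-11), from 218, 209.9 and 216 CPM in WT to 253, 259.8 and 253 CPM in KO.

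Creld2 and Manf, small ER proteins that are known targets of the unfolded protein response, both rose. Creld2 went from 22.1, 21.3 and 22.4 CPM in WT to 26.1, 25.7 and 25.9 CPM in KO (1.18-fold, SE 0.06, adjusted p = 4.7e-04). Manf, a secreted survival factor that binds BiP, went from 65.6 ± 1.76 to 73.9 ± 2.78 CPM (1.13-fold, SE 0.04, adjusted p = 2.1e-04). In all, 10 ER members rose, 5 fell and 6 were not called, with a median log2 change of 0.17. Of all tested genes, 30.3% rose and 31.2% fell, with a median of 0.004. The members that hold the ER stress element did not move as a block: Pdia6, Creld2 and Syvn1 rose, Hspa5, Hsp90b1 and Calr fell, and Canx and Dnajc3 were not called.

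**Figure D2:**
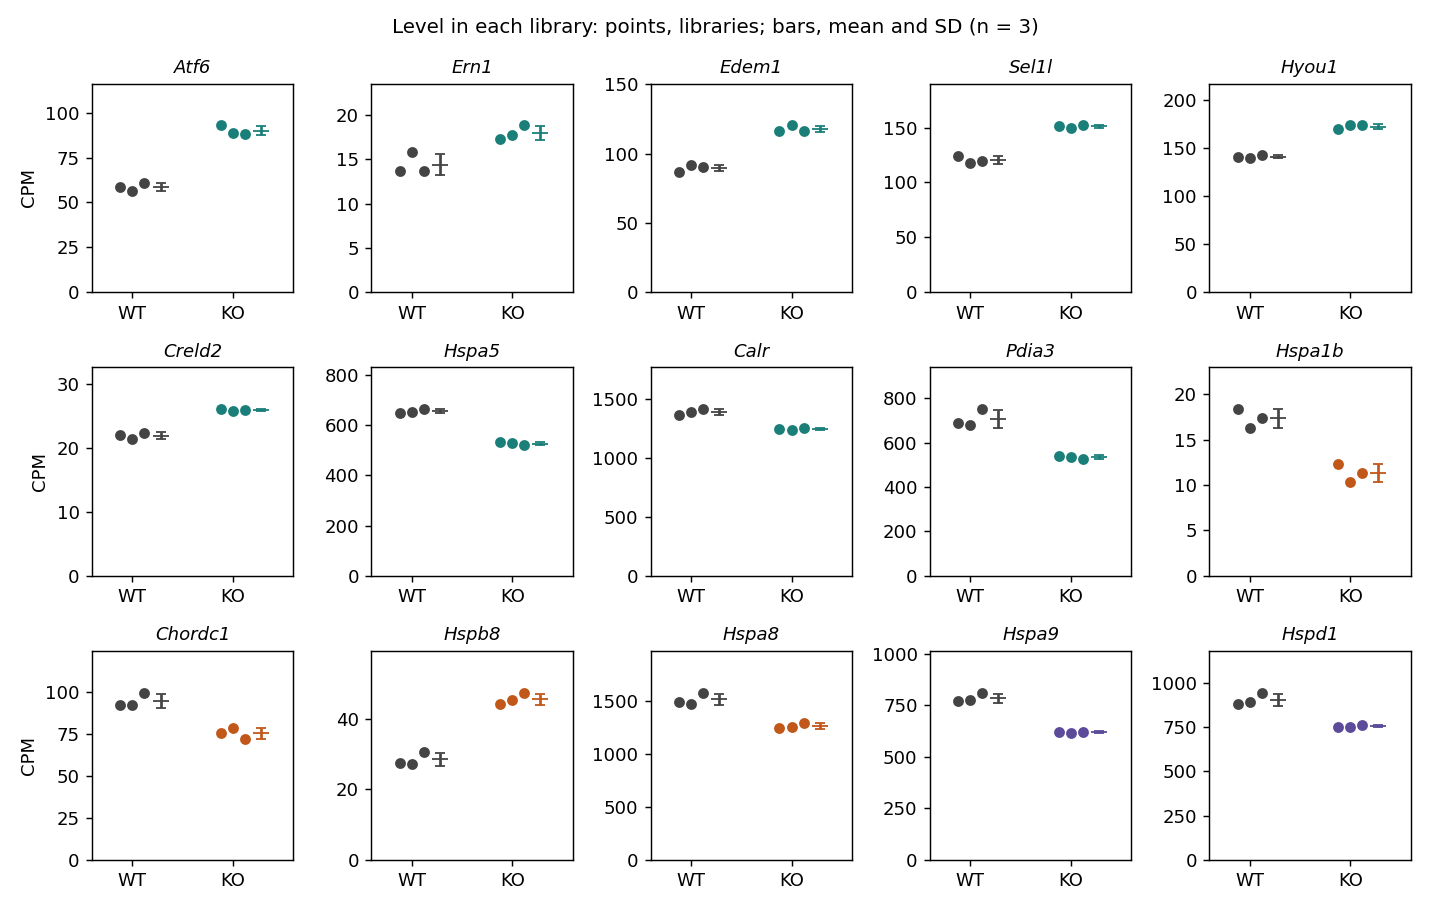
Level in CPM (y axes, each starting at 0) of 15 members in the 3 WT and 3 KO libraries (x axes). Points are libraries and bars the mean with SD. Atf6, Ern1, Edem1, Sel1l, Hyou1, Creld2 and Hspb8 are higher in all KO libraries, and Hspa5, Calr, Pdia3, Hspa1b, Chordc1, Hspa8, Hspa9 and Hspd1 are lower.

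Of the 15 cytosolic heat shock genes, 9 fell, 2 rose and 4 were not called. Without Hspb1, which passed the filter only through the KO libraries, 9 of 14 fell and 1 rose, where 31.2% of all tested genes fell and 30.3% rose. Among the inducible HSP70 genes, Hspa1b (chr17:34956429-34959238, minus strand, 1 exon) was counted at 18.4, 16.3 and 17.4 CPM in WT and at 12.3, 10.4 and 11.4 CPM in KO. The groups lay apart, with a 1.52-fold fall (log2 −0.61, SE 0.08, adjusted p = 6.1e-10), the largest fall among the members. Its neighbour Hspa1a had only 69, 106 and 116 counts in WT and 71, 74 and 76 in KO. It was called lower (1.33-fold, SE 0.16, adjusted p = 0.0243), but not with DESeq2 (adjusted p = 0.0759), without KO replicate 2 (adjusted p = 0.0514) or without KO replicate 3 (adjusted p = 0.0551), each at a log2 change of −0.41. Without WT replicate 3 the change itself was smaller (log2 −0.27, adjusted p = 0.207). The 2 genes are near-identical copies: 70.1% of the 31-base words of the Hspa1a transcript and 68.1% of those of Hspa1b occur in transcripts of other genes, which makes the share of reads given to each copy uncertain. With their counts summed they fell 1.49-fold (SE 0.07, adjusted p = 1.8e-10), from 20.98 ± 0.987 to 14.1 ± 1.02 CPM.

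The constitutive HSP70 gene Hspa8 (chr9:40801273-40805199, plus strand, 9 exons), which also strips clathrin from vesicles, had 1499, 1479 and 1581 CPM in WT and 1249, 1256 and 1297 CPM in KO. It fell 1.199-fold (SE 0.03, adjusted p = 3.7e-12). Hsph1, an HSP110 that exchanges the nucleotide of HSP70, fell 1.17-fold (adjusted p = 1.0e-09), from 252 ± 6.001 to 216 ± 2.001 CPM. Its relative Hspa4 had 602, 578 and 625 CPM in WT and 579.9, 577 and 585 CPM in KO and was not called (log2 −0.05, adjusted p = 0.128), although without WT replicate 2 it was (log2 −0.08, adjusted p = 0.0117). The J-domain partners of HSP70 among the members were both lower, where 31.2% of all tested genes were lower. Dnaja1 fell 1.17-fold (adjusted p = 2.6e-09) and Dnajb1 1.11-fold (adjusted p = 3.5e-04). Other cytosolic J-domain genes went both ways. Dnajb4 (log2 0.48) and Dnajb5 (0.47) rose, and Dnaja2 (−0.17), Dnajb6 (−0.11) and Dnajc7 (−0.12) fell. Dnaja4 and Dnajb2 were not called. These other genes were picked after their values were seen. Exons of Dnaja1 overlap those of Smu1 on the other strand over 26.0% of their length, and the strand setting of the count was not given in the sources used here.

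All 3 members of the HSP90 group fell, where 31.2% of all tested genes fell. Hsp90ab1, the constitutive cytosolic HSP90, was the most abundant member per length, at 3830.2 ± 47.2 TPM in WT (TPM also corrects for gene length). It had 4242, 4046 and 4236 CPM in WT and 3648, 3631 and 3701 CPM in KO, a 1.14-fold fall (SE 0.03, adjusted p = 4.0e-08). The inducible Hsp90aa1 fell 1.097-fold (adjusted p = 5.1e-05), from 1132 ± 38.01 to 1032 ± 8.17 CPM. Chordc1, which encodes the HSP90 co-chaperone morgana, had 91.96, 92.2 and 99.3 CPM in WT and 75.7, 78.3 and 71.99 CPM in KO. Its fall of 1.25-fold (SE 0.04, adjusted p = 3.6e-11) left no overlap between the groups.

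Among the small heat shock proteins, which hold unfolded proteins without ATP, and their partner Bag3, none fell. Of all tested genes, 31.2% fell and 30.3% rose. Hspb8 and Hspb1, which rose, lie on chromosome 5, where the median log2 change of all tested genes was 0.19. Hspb8 (chr5:116408491-116422864, minus strand, 3 exons), the partner of BAG3 in chaperone-assisted autophagy, had 27.4, 27.3 and 30.6 CPM in WT and 44.3, 45.2 and 47.3 CPM in KO. It rose 1.6-fold (log2 0.68, SE 0.05, adjusted p = 1.6e-18), with all KO libraries above WT. Bag3 itself had 91.9, 85.3 and 89.03 CPM in WT and 94.7, 86.2 and 94.9 CPM in KO, overlapped and was not called (log2 0.05, adjusted p = 0.235). Cryab, alpha-B crystallin, was likewise not called (log2 −0.03, SE 0.03, adjusted p = 0.507), and 20.6% of its exon length overlaps Hspb2 on the other strand. Hspb1 had 6, 3 and 0 counts in WT and 13, 21 and 23 in KO, and it passed the filter only because of the KO libraries (log2 2.59, SE 0.51, adjusted p = 1.2e-05). Hsf1, the transcription factor of the heat shock response, had 37.5, 38.8 and 36.6 CPM in WT and 36.3, 36.2 and 38.6 CPM in KO (log2 −0.02, approximate 95% interval −0.12 to 0.08, adjusted p = 0.729). Counts of its mRNA do not report the activity of the protein.

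All 3 mitochondrial chaperones fell, where 31.2% of all tested genes fell. Their mean over the 6 libraries was at least 500 TPM, a level at which 49.8% of the 251 tested genes fell. Hspa9, the matrix HSP70 mortalin that also draws proteins through the inner membrane, had 769.6, 773 and 809.5 CPM in WT and 621, 615 and 621 CPM in KO (1.27-fold, SE 0.03, adjusted p = 6.0e-17). Hspd1, the chaperonin HSP60, had 882, 891 and 945 CPM in WT and 755, 753 and 763 CPM in KO (1.197-fold, SE 0.03, adjusted p = 4.7e-12). Hspe1, its lid HSP10, had 212, 212 and 220.2 CPM in WT and 190.5, 186 and 193 CPM in KO (1.13-fold, SE 0.03, adjusted p = 6.7e-07). None of these groups overlapped. Hspd1 and Hspe1 lie head to head on chromosome 1. Of the cytosolic and mitochondrial members with a heat shock element in the window, Hspb1 aside for its low counts, Hspa1a, Hspa1b, Hsph1, Dnaja1, Chordc1, Hspd1 and Hspe1 were lower, Hspb8 was higher, and Bag3 was not called.

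Several members share sequence with other genes, among them processed pseudogenes. Words of 31 bases shared with transcripts of other genes made up 53.1% of Hspd1, 51.5% of Hsp90aa1, 44.8% of Hspa8, 30.5% of Hspe1 and 22.6% of Dnaja1. They made up 55.4% of Hspb1, most of it shared with the pseudogene Hsp25-ps1. Among ER members the highest shares were 12.3% for Hsp90b1, 10.8% for Dnajb9 and 7.25% for Manf. Not given in the sources used here was how multi-mapped reads were treated. The part of this in the differences was not tested. Chordc1, Hsph1, Dnajb1, Hspb8, Edem1, Sel1l, Atf6 and Ern1, with at most 2.37% shared words, had few or no such words.

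Per length, the members spanned a wide range of levels in WT. After Hsp90ab1 came Hspa8 at 1662 ± 59.6 and Calr at 1642 ± 49.7 TPM in WT, whose libraries overlapped. Hsp90aa1 (914 ± 36.1 TPM) and Hspd1 (894 ± 38.9 TPM) overlapped as well, and so did Hspe1, Pdia3, Hspa9 and Hspa5 in succession, between 643 and 576 TPM. The sensors and their factor stood in the lower part of the order, with 33.3 ± 2.07 TPM for Xbp1, 18.1 ± 0.5197 TPM for Atf6 and 8.36 ± 0.876 TPM for Ern1. The inducible Hspa1b (14.2 ± 0.573 TPM) and Hspa1a (2.98 ± 0.587 TPM) were also low, and Hspb1 was last at 0.302 ± 0.323 TPM. Summed over the compartment, the ER members made up 4997 ± 155 TPM in WT and 4765 ± 52.4 TPM in KO, the cytosolic members 7519 ± 156 and 6826 ± 44.3 TPM, and the mitochondrial members 2130.3 ± 78.1 and 1836 ± 19.9 TPM (n = 3).

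The most abundant members were mostly lower in KO. Of the 11 members with a mean over the 6 libraries of at least 500 TPM, 10 fell and 0 rose, with a median log2 change of −0.19. Of all 251 tested genes at that level, 49.8% fell and 17.1% rose, with a median of −0.07. Of the 13 ER members between 10 and 100 TPM, 8 rose and 0 fell (median 0.25), and of the 7 cytosolic members in that range 1 rose and 4 fell (median −0.15). Among all 7032 tested genes in that range, 29.3% rose and 34.1% fell, with a median of −0.02. The difference between the compartments at a like level was not tested.

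**Figure D3:**
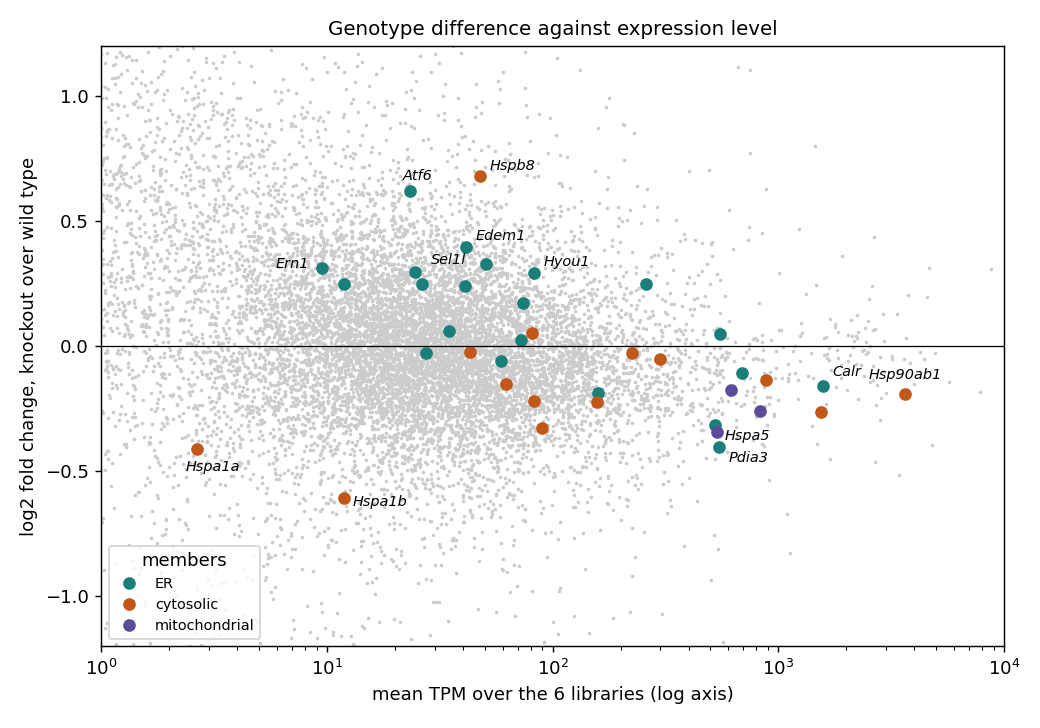
Log2 fold change of KO over WT (y axis, shown from −1.2 to 1.2) against the mean TPM over the 6 libraries (x axis, log scale). Grey dots are all tested genes in this range and coloured dots the members, without Hspb1, which lies outside it. The 10 members that fell at 500 TPM or more sit at the right below 0, and the sensors Atf6 and Ern1 sit at the left above 0.

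Chromosome position moved with some of the changes. The median log2 change of all tested genes was −0.24 on chromosome 2, which holds Hspa5 and Pdia3. It was 0.19 on chromosome 12, which holds Pdia6, Dnajb9, Sel1l and Hsp90aa1, and 0.19 on chromosome 5, which holds Hsph1, Hspb1 and Hspb8. Relative to the median of its chromosome, Hspa5 stood at −0.08, Pdia3 at −0.16, Pdia6 at 0.06, Dnajb9 at 0.11 and Sel1l at 0.14. The same measure was 0.64 for Atf6, 0.49 for Edem1, 0.27 for Hyou1, 0.49 for Hspb8, −0.32 for Hsp90aa1 and −0.42 for Hsph1. Off chromosomes 2, 3, 5 and 12, 7 of 16 ER members rose and 3 fell. There, 0 of 11 cytosolic members rose and 7 fell, and the 3 mitochondrial members fell. Of all 10029 tested genes off these chromosomes, 2597 rose and 3241 fell, with a median log2 change of −0.02. Chromosome 19, which holds Syvn1, was not left out, although its median was 0.10. Relative to that median, Syvn1 stood at 0.14. The part of the chromosome in these differences was not tested.

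**Figure D4:**
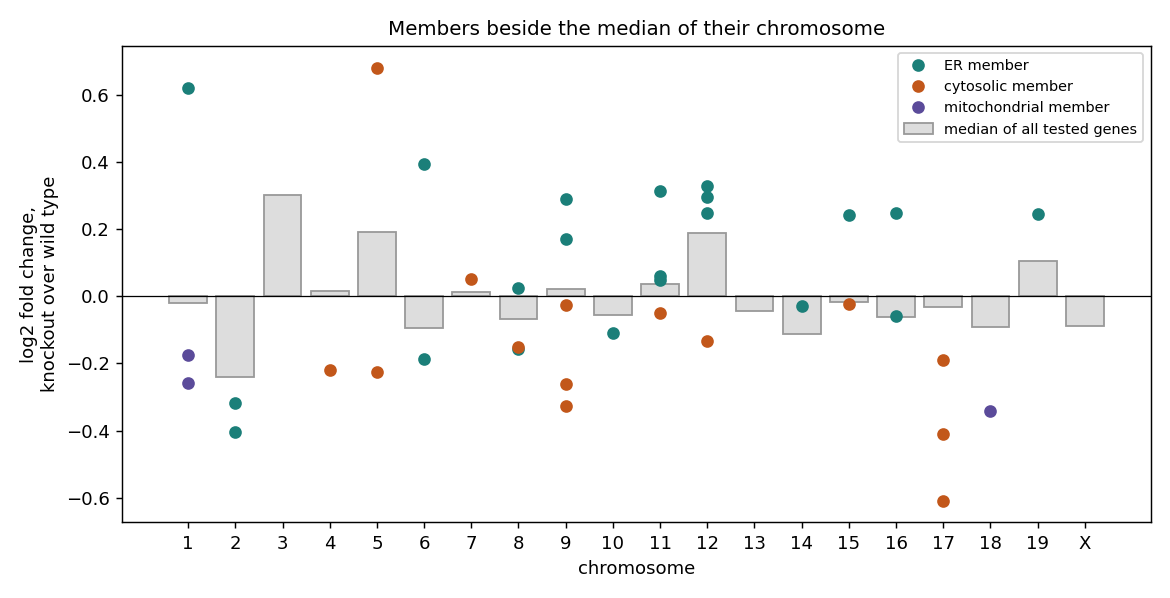
Log2 fold change of KO over WT (y axis) by chromosome (x axis): bars are the median of all tested genes, dots the members without Hspb1. Hspa5 and Pdia3 lie on chromosome 2, whose bar is at −0.24, and Atf6 on chromosome 1, whose bar is at −0.02.

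Other genes of the same pathways, were listed by their known function. Of 32 other ER folding and degradation genes, 10 rose and 9 fell (median log2 0.01), shares near the 30.3% and 31.2% of all tested genes. Serp1, which guards nascent membrane proteins, rose 1.32-fold (SE 0.03, adjusted p = 3.8e-17) and Uggt1, which sends unfolded glycoproteins back to the lectins, 1.19-fold (SE 0.03). The isomerase gene Pdia5 fell 1.62-fold (SE 0.07, adjusted p = 2.7e-14) and Mesdc2, a chaperone of LDL receptor relatives, 1.21-fold (SE 0.04). Serp1 lies on chromosome 3, where the median of all tested genes was 0.30.

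Of 12 other signalling genes of the unfolded protein response, 5 rose and 3 fell (median −0.02), against 30.3% and 31.2% of all tested genes. In 10 of 13 alternatives 2 fell, DESeq2, limma-voom and the replicate block among them, and Eif2s1 lay closest to the threshold (log2 −0.07, adjusted p = 0.0486). Mbtps1, the site-1 protease that cuts ATF6, had 135, 133 and 132 CPM in WT and 159, 156 and 162 CPM in KO and rose 1.19-fold (SE 0.03, adjusted p = 1.0e-10). Wfs1, an ER membrane protein, rose 1.28-fold (SE 0.07, adjusted p = 2.0e-05). It lies on chromosome 5, where the median log2 change of all tested genes was 0.19. Atf4, the transcription factor downstream of PERK, went the other way, from 212, 205 and 209 CPM in WT to 149.7, 156 and 152 CPM in KO, a 1.37-fold fall (SE 0.03, adjusted p = 1.3e-21). Its target Trib3 fell 1.49-fold (SE 0.07, adjusted p = 5.7e-10). Trib3 lies on chromosome 2, where the median of all tested genes was −0.24. Eif2ak3, which encodes PERK, was not called (28.1 ± 0.0518 and 28.3 ± 1.08 CPM, adjusted p = 0.894), nor was Ddit3, the stress factor CHOP (16.9 ± 0.445 and 15.9 ± 1.04 CPM, adjusted p = 0.271). Eif2ak3 and Ddit3 were picked for their roles after the values were seen.

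Of 28 tested other cytosolic chaperones and co-chaperones, out of 30, 6 rose and 12 fell (median −0.07), against 30.3% and 31.2% of all tested genes. Fkbp5, an HSP90 partner of steroid receptors, fell 1.402-fold (SE 0.04, adjusted p = 1.1e-15) and St13, the HSP70 partner HIP, 1.21-fold (SE 0.03). Hspa4l and Dnajb4 rose 1.23-fold (SE 0.03) and 1.39-fold (SE 0.05), and both lie on chromosome 3. Of 14 other mitochondrial chaperones and proteases, 5 rose and 5 fell (median −0.03), against the same shares. Timm44, which ties mortalin to the import channel, fell 1.44-fold (SE 0.05, adjusted p = 4.7e-14) and Trap1, the mitochondrial HSP90, 1.27-fold (SE 0.04). The protease gene Spg7 rose 1.31-fold (SE 0.05) and Dnajc19 1.21-fold (SE 0.05). Dnajc19 lies on chromosome 3 too, where the median log2 change of all tested genes was 0.30. Of these 14 genes, 6 were called without KO replicate 2 and 6 without WT replicate 1, in place of 10.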

How the data were processed

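Read counts of each gene, not normalized, were deposited by the authors for 3 WT and 3 KO libraries, made with a stranded kit after removal of ribosomal RNA, per the labels' protocols. STAR 2.6.1d, featureCounts 1.6.3 and mm10 or GRCm38 are named in the submitters' processing notes. The strand setting, the annotation and the treatment of multi-mapped reads were not given in the sources used here. Counts that the authors deposited for downstream-of-gene regions were not used, because the regions carry no gene name.

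The main test was the quasi-likelihood F test of edgeR 4.0.16 (R 4.3.3), with TMM scaling, filterByExpr at its minimum count 10 and total 15, and Benjamini-Hochberg adjustment over 12947 genes. Genes were called where the adjusted p was below 0.05. An SE was obtained by dividing the size of the log2 fold change by √F, and approximate 95% intervals are 1.96 SE. CPM used TMM-scaled library sizes, and TPM the deposited exon length. Means are ± SD with n = 3, and members are called higher or lower without a test of the list. The test was tested on simulated counts of 12947 genes: of 50 genes each, 54% were called at 1.2-fold, 92% at 1.5-fold, 98% at 2-fold and 100% at 4-fold, with 14 false calls. Only 200 genes were changed in the simulation, while 7955 were called in the data, so these shares need not hold for the data.

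Groups and replicate numbers came from the sample titles. Alternatives were RLE size factors, other count filters, DESeq2 1.42.0, limma-voom (limma 3.58.1), a replicate block, Rn45s left out, each library left out, Hspa1a and Hspa1b summed, and members off chromosomes 2, 3, 5 and 12. Those for the lists of other genes were added after the data were seen. Shared words of 31 bases were counted in GENCODE M21 transcripts (GRCm38) with Python 3.11.15, pandas 2.3.3 and NumPy 2.4.6, and plots were drawn with matplotlib 3.10.9. The members, lists and alternatives were chosen with earlier results of these data known. All members were to be named, and of each list of other genes up to 4 called ones with the smallest adjusted p. Protein sequences were not used here.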

Additional observations from a re-analysis of the deposited data

How the results depend on the processing

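The counts of called members kept their split under RLE size factors, no count filter, limma-voom, a replicate block and without Rn45s: 10 higher and 5 lower in the ER, 2 and 9 in the cytosol, 0 and 3 in mitochondria. With DESeq2 or a filter at 1 CPM the cytosolic count was 10. Off chromosomes 2, 3, 5 and 12 it was 7, since 4 members were left out. With each library left out in turn, ER calls numbered 15 to 16, cytosolic calls 10 to 12 and mitochondrial calls 3. Among the members' fold changes, that of Herpud1, never called, ranged from −0.012 (without KO replicate 3) to 0.055 (without KO replicate 2) with a library left out, against 0.02. Calls of the other mitochondrial genes numbered 6 to 8 with a library left out, against 10. The cause was not tested.

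With the replicate number as a block, the paired fit called 7816 genes, against 7955 without the replicate block, and changed no call of a member. Same-numbered libraries correlated in their deviations at −0.03 for each number, and the other pairs at 0.009 to 0.022. No shared deviation was thus seen. Whether the cultures were paired cannot be told from this, since pairing need not leave one, and the labels do not say. Across the alternatives between 7027 (DESeq2) and 8196 (no count filter) genes were called. Hspb1, Hspa1a and Sdf2l1 had the fewest counts of the members, so their values are the least precise.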

Other observations

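The chaperonin TRiC, a cytosolic barrel that folds actin and tubulin, and prefoldin, which hands proteins to it, were mostly lower in KO. Of their 14 subunit genes, 11 fell and 1 rose, with a median log2 change of −0.18, against 31.2% lower and 30.3% higher of all tested genes. Between 100 and 500 TPM, where 10 of the subunit genes lie, 50.1% of all tested genes fell. Tcp1 fell 1.24-fold (SE 0.03, edgeR adjusted p = 1.3e-15), from 620.3, 622 and 634 CPM in WT to 503, 501 and 506 CPM in KO, with no overlap. Cct8 fell 1.23-fold (SE 0.03), Cct5 1.19-fold (SE 0.03) and Cct7 1.17-fold (SE 0.03). Cct3, the subunit that rose (1.16-fold, SE 0.03), lies on chromosome 3, where the median of all tested genes was 0.30. Cct6a on chromosome 5 was not called (log2 0.03, adjusted p = 0.384), nor was Pfdn2 (log2 −0.07, adjusted p = 0.253). These 3 were singled out after their values were seen.

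The TPM of Hspa1b was 6.19, 4.55 and 4.0 times that of Hspa1a in the WT libraries and 4.40, 3.81 and 4.19 times in the KO libraries. The corresponding ratio of Hsp90ab1 to Hsp90aa1 was 4.36, 4.13 and 4.10 in WT and 4.0, 3.98 and 4.12 in KO. Both sets of values overlap between the genotypes.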
